A study of Mus musculus with 21 samples.

Results

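Toll-like receptor signalling was followed through 8 genes in bone marrow progenitors of mice with and without a mutation of Etv6, whose product is an ETS-family factor that represses transcription. The genes were the rows of the deposited expression table carrying the symbols Unc93b1, Tlr2, Tlr4, Ly96, Myd88, Irak4, Irak1 and Traf6. They are 8 of the 9 symbols listed for the pathway and 8 of the 11628 genes in the table. Tlr9 was not analysed here.

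Toll-like receptors recognise microbial products. TLR2 and TLR4 sit at the cell surface, where TLR4 needs the small secreted co-receptor encoded by Ly96 to bind lipopolysaccharide, while TLR3, TLR7 and TLR9 signal from endosomes and are carried there by the transmembrane chaperone UNC93B1. Most of these receptors pass the signal to the adaptor MYD88, which assembles the kinases IRAK4 and IRAK1. These activate the ubiquitin ligase TRAF6, and NF-kB and interferon regulatory factors are switched on downstream. Blood stem and progenitor cells are known to carry some of these receptors, and in mouse marrow their stimulation is known to push progenitors towards myeloid and dendritic fates.

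Libraries came from mice of genotype Wild Type or ETV6 mt/mt, the latter homozygous for a mutation the series description writes as h.P214L. From each genotype 3 lineage-negative bone marrow populations were sorted. HSC, blood stem cells, were cKit+, Sca1+, FLK2-neg and CD150+, and the label adds CD38-neg. MPP4, multipotent progenitors, were cKit+, Sca1+ and FLK2+. CLP, common lymphoid progenitors, were positive for IL7 (as the label writes it) and Flk2, with low cKit and Sca1. There were 3 wild-type libraries and 4 mutant ones per population, 21 in all, from mice of both sexes aged 10 or 12 weeks. No treatment is given in the labels. Values are RPKM, reads scaled to transcript length and to the library's mapped reads, so that levels of different genes can be set side by side. Changes are differences of log2(RPKM + 1) fitted with limma over all libraries. A gene is said to have risen or fallen where its Benjamini-Hochberg adjusted p over all 11496 genes tested was under 0.05.

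The RPKM of all genes summed to between 337818 and 376135 per library, and libraries of 1 group correlated at 0.969 to 0.990 over genes. Read counts were not given, so the depth behind each value is unknown. The sorted populations were checked against marker genes. The 6 HSC markers summed to 495 to 581 RPKM in wild-type HSC and to 40.2 to 60.5 in wild-type MPP4. Markers of plasmacytoid dendritic cells and of neutrophils were also present. The neutrophil list (8 of 9 genes measured) summed to 163 to 1360 in wild-type HSC, 575 to 1081 in MPP4 and 310 to 556 in CLP. The wild-type HSC libraries differed widely, with S100a8 at 199 ± 307 RPKM (SD, n = 3). In wild-type MPP4 the largest of the list was Mpo, at 467 ± 74.3 (SD, n = 3).

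The table of RefSeq promoters used here matched 5 of the 8 genes (Tlr2, Myd88, Irak4, Irak1 and Traf6). Of these, 4 are printed because they set the 3 genes Tlr2, Myd88 and Irak4, all lower in wild-type CLP than in HSC, beside Traf6, which did not pass that test. Each run is the 250 bases before the transcript start of that table, on the gene's own strand, written 5′ to 3′, in build GRCm38.p6. For Tlr2 and Irak4 that start lies inside the RefSeq gene interval, so 216 and 47 bases of their windows fall within the gene. Capitals mark matches on either strand to the ETS cores CCGGAA or GAGGAA. The 3 intervals below for Tlr2, Myd88 and Irak4 are chr3:83841609-83841858 (minus strand), chr9:119340019-119340268 (minus strand) and chr15:94543410-94543659 (plus strand), and that of Traf6 is chr2:101678170-101678419 (plus strand).
Tlr2: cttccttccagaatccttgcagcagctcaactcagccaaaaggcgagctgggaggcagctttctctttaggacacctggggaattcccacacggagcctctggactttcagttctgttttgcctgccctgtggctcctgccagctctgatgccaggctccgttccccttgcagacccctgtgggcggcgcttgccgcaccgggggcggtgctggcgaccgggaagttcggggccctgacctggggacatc
Myd88: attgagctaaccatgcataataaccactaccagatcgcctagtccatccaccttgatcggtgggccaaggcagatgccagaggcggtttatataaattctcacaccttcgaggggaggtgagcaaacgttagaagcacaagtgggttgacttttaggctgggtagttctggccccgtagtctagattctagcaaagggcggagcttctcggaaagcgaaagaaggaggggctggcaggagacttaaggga
Irak4: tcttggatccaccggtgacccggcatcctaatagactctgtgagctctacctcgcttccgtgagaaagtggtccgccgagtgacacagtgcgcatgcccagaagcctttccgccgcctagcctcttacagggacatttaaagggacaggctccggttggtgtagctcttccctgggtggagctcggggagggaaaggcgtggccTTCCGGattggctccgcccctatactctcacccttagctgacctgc
Traf6: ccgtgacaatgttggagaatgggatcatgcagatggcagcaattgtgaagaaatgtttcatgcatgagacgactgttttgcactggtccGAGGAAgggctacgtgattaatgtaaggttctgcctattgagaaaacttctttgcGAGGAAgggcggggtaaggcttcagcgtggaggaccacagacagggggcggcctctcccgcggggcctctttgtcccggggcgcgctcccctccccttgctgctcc
Irak4 held the only CCGGAA match, on the opposite strand and so printed as TTCCGG, 46 bases before that start. It thus lies among the 47 bases of the window that fall within the gene. Traf6 held GAGGAA at 161 and at 106 bases before the start. Tlr2 and Myd88 held neither, nor did either annotated Irak1 start. Among 32851 mouse promoter windows of the same length, 12.0% held CCGGAA and 23.3% held GAGGAA. A match describes the letters in the window only.

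The 8 genes spanned a wide range of levels and followed different courses through the wild-type populations. Unc93b1 was far higher in MPP4 than in HSC and higher again in CLP, while the surface receptor genes and most of the shared signalling genes were lower in CLP than in HSC. Per length, Irak1 and Myd88 were the most abundant in wild-type HSC at 74.0 ± 2.92 and 45.0 ± 4.09 RPKM (SD, n = 3), and in wild-type CLP Unc93b1 led at 174 ± 26.6. Tlr4 was the least abundant throughout, at 8.94 ± 0.346 RPKM in wild-type HSC and 1.45 ± 0.728 in wild-type CLP. The plot of RPKM by library shows all 8 genes.

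**Figure D1:**
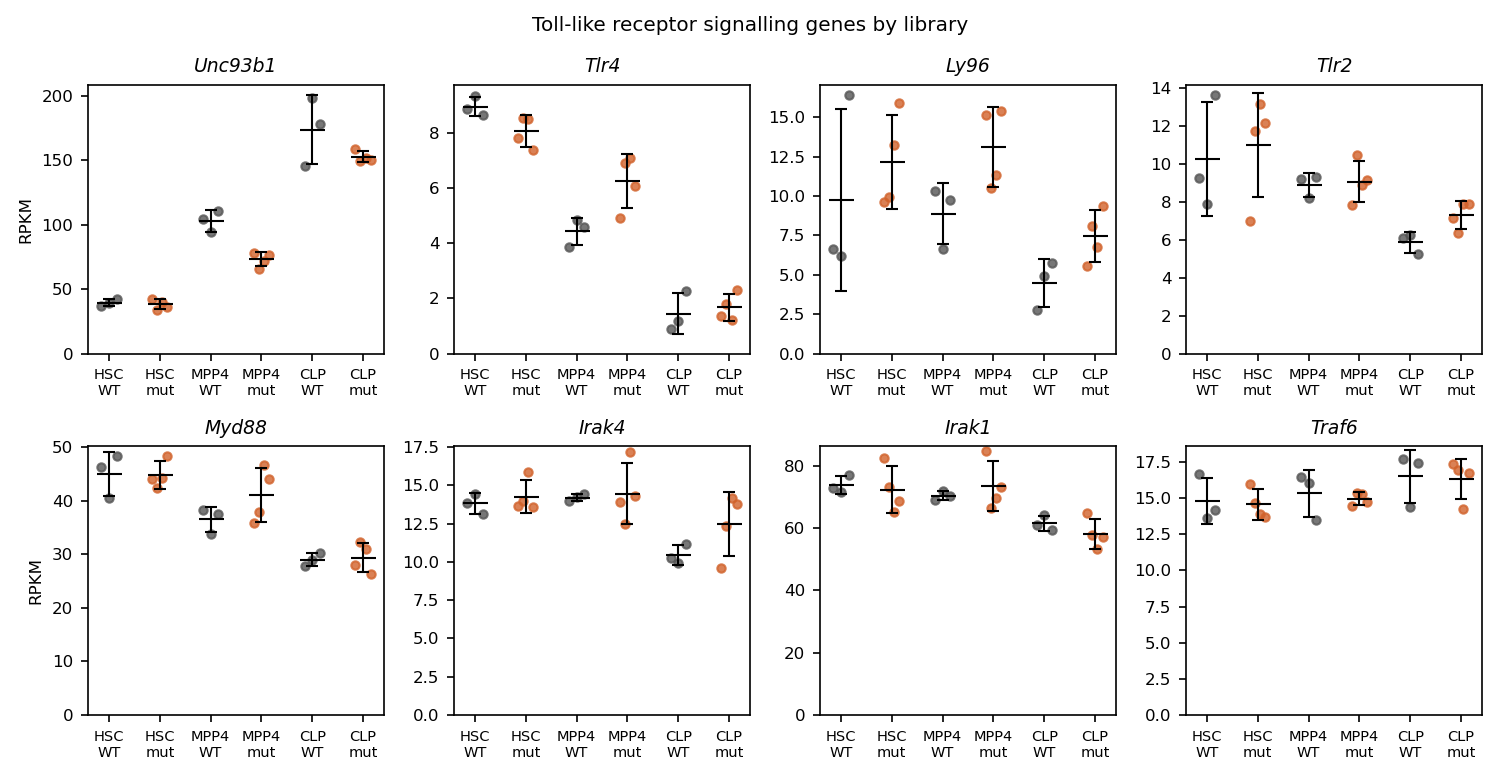
RPKM of the 8 Toll-like receptor signalling genes in each of the 21 libraries, by population and genotype. Points are libraries, horizontal marks are group means and vertical bars are SD. Unc93b1 climbs from 37.1 to 42.7 RPKM in wild-type HSC to 145 to 198 in wild-type CLP while Tlr4 descends from 8.64 to 9.32 to 0.878 to 2.27.

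Unc93b1 (chr19:3935158-3949340, plus strand) encodes the chaperone of the endosomal receptors. In wild-type HSC its 3 libraries read 37.1, 39.1 and 42.7 RPKM, in wild-type MPP4 104, 94.0 and 111, and in wild-type CLP 145, 198 and 178. The 3 populations did not overlap. The wild-type step from HSC to MPP4 was 1.36 on the log2 scale (SE 0.10, limma adjusted p = 2.82e-09) and that from MPP4 to CLP was 0.74 (adjusted p = 4.00e-05), which made 2.10 from HSC to CLP (adjusted p = 1.53e-12). Unc93b1 stood above 81.6% of all genes in wild-type HSC and above 97.4% in wild-type CLP. The 9 plasmacytoid dendritic cell markers summed to 124 to 164 RPKM in HSC, 243 to 295 in MPP4 and 614 to 914 in CLP. In CLP Cox6a2 and Irf8 made up most of the sum. In HSC most of it was Bst2 (91.0 on average) and Irf7 (27.6), and 4 of the 9 averaged under 1 RPKM. Of the 9, 6 rose from HSC to MPP4 and 4 from MPP4 to CLP, beside 16.1% and 4.77% of all genes. None of the 9 fell by the same test, beside 23.3% and 8.38% of all genes. The part of these markers in the rise of Unc93b1 was not tested.

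In mutant mice Unc93b1 stood lower in MPP4. The 4 mutant MPP4 libraries read 77.9, 65.8, 71.8 and 76.5 RPKM, all below the lowest wild-type MPP4 library at 94.0. Their mean was 73.0 ± 5.48 (SD, n = 4) against 103 ± 8.45 (SD, n = 3), a ratio of 0.709. The fitted difference was -0.49 on the log2 scale (95% interval -0.69 to -0.29, limma adjusted p = 0.0413), the 19th smallest p of 11496 genes. In HSC the mutant libraries read 42.4, 34.0, 40.1 and 36.3 and overlapped the wild type, with a difference of -0.05 (interval -0.26 to 0.15, adjusted p = 1.00). In CLP they read 159, 149, 152 and 150, within the wild-type range, with a difference of -0.18 (interval -0.38 to 0.03, adjusted p = 1.00). The mutant effect in MPP4 was not shown to differ from that in HSC: the difference of the effects was -0.44 (interval -0.72 to -0.15), with an unadjusted p of 0.00499 and an adjusted p of 0.940.

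The fall of Unc93b1 in mutant MPP4 passed the test narrowly. Its estimate stayed between -0.51 and -0.44 under the 12 other ways of processing, but the adjusted p was 0.119 with a pseudocount of 0.1, 0.0536 with 0.5, 0.0944 after quantile normalization and 0.0701 with MPP4 libraries fitted alone. Leaving out any 1 of the 7 MPP4 libraries gave an adjusted p of 0.0550 to 0.430, the highest without wild-type MPP4 replicate 3. It was also 0.0501 to 0.0584 without wild-type HSC replicate 2, mutant HSC replicate 1, 3 or 4, wild-type CLP replicate 3 or mutant CLP replicate 3 or 4.

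**Figure D2:**
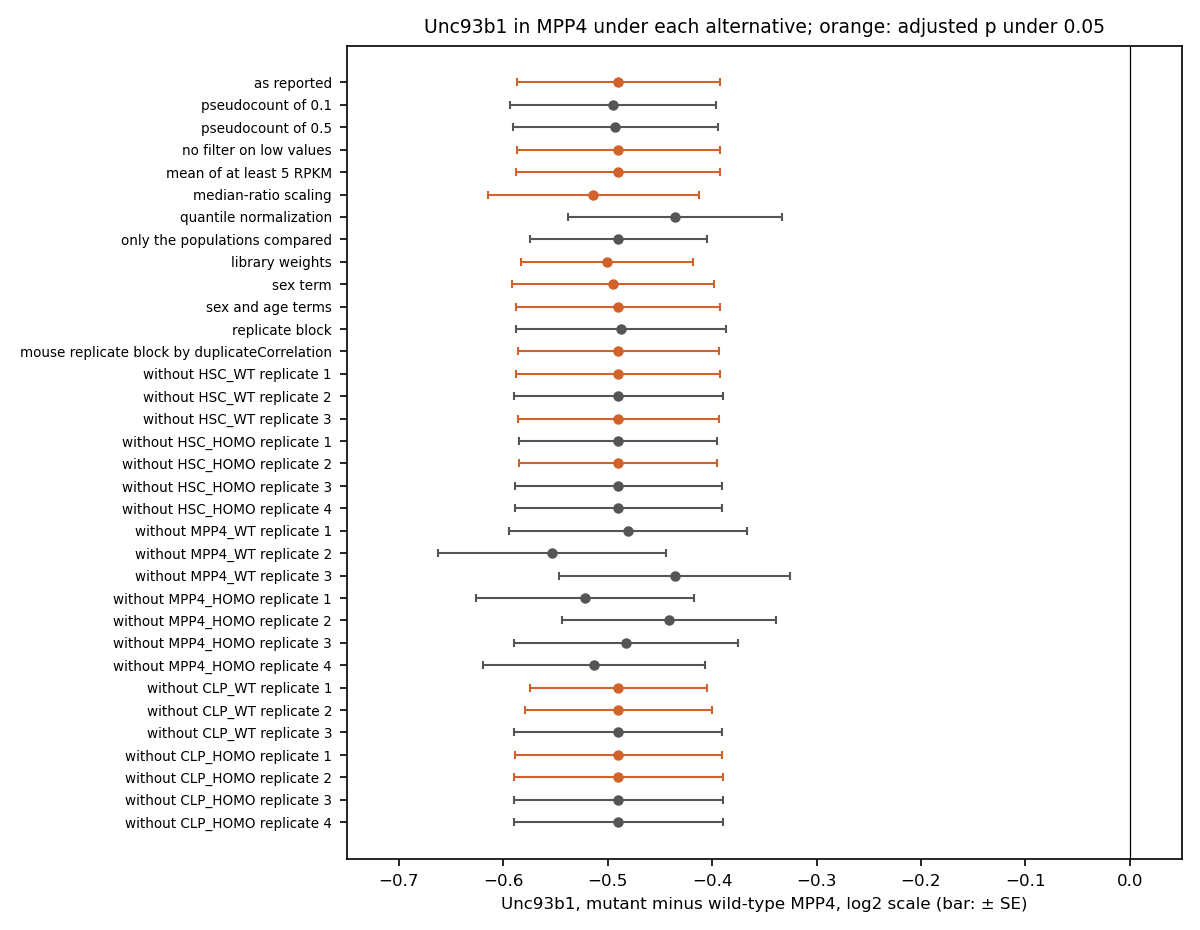
Mutant minus wild-type difference of Unc93b1 in MPP4, in log2(RPKM + pseudocount), under each way of processing and with each library left out; points are estimates, bars are standard errors, orange marks an adjusted p under 0.05, and HOMO stands for the mutant. Every estimate lies between -0.55 and -0.44, and the call is lost in 5 of the 12 settings and 14 of the 21 fits with a library left out.

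Markers of other cell states were measured in the same MPP4 libraries, where 0.217% of all genes passed between genotypes. The 6 HSC markers, all measured, summed to 93.5 to 107 RPKM in mutant MPP4 against 40.2 to 60.5 in wild type, and 2 of the 6 rose. The 9 plasmacytoid dendritic cell markers, all measured, summed to 204 to 277 against 243 to 295, and 2 fell, Irf8 and Cox6a2. The 7 markers of CLP and early B cells summed to 24.7 to 44.5 against 34.4 to 82.7, and 1 fell. The 5 lymphoid-primed markers summed to 1139 to 1310 against 1484 to 1866, with 0 of 5 past the test and all 5 estimates negative. Monocyte markers (6 of 9 measured) summed to 306 to 505 against 286 to 335, with 3 of 6 estimates positive and a median difference of -0.06. Lyz2 averaged 324 RPKM in mutant MPP4 against 244, while Csf1r averaged 14.9 against 31.9. Neutrophil markers summed to 732 to 2194 against 575 to 1081, with 4 of 8 estimates positive and a median of 0.88. Of these monocyte and neutrophil markers 0 passed. Erythroid markers (4 of 5 measured) summed to 18.5 to 50.1 against 3.02 to 54.2, with a median difference of 1.08, and the 5 megakaryocyte markers to 14.6 to 188 against 10.1 to 169.5, with a median of 0.77, and 0 of either list passed. No measured marker of these lists was at 0 in all libraries of either group. The part of these markers in the values of Unc93b1 and of the other genes in mutant MPP4 was not tested. In bulk libraries such as these, fewer cells of a type and less RNA per cell cannot be told apart.

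Tlr4 (chr4:66827551-66846581, plus strand) encodes the lipopolysaccharide receptor and ran opposite to Unc93b1. Wild-type HSC libraries read 8.87, 9.32 and 8.64 RPKM, wild-type MPP4 libraries 3.86, 4.83 and 4.58, and wild-type CLP libraries 0.878, 1.20 and 2.27, again with no overlap between populations. It fell by 0.88 on the log2 scale from HSC to MPP4 (SE 0.18, limma adjusted p = 5.76e-04), fell by 1.18 from MPP4 to CLP (adjusted p = 9.34e-05) and fell by 2.06 from HSC to CLP (adjusted p = 7.26e-09). These calls, and those of Unc93b1 in the same steps, were kept under every alternative and with any library left out.

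Mutant MPP4 libraries held more Tlr4 than wild type, at 4.93, 6.90, 7.09 and 6.08 RPKM. All 4 were above the highest wild-type MPP4 library at 4.83 and below the lowest mutant HSC library at 7.36. The difference of 0.41 (interval 0.06 to 0.76) had an unadjusted p of 0.0234 and a limma adjusted p of 0.497, so it did not pass over all genes. Mutant HSC libraries, at 7.80, 8.54, 8.51 and 7.36, lay just below the lowest wild-type one at 8.64, with a difference of -0.14 (interval -0.49 to 0.21, adjusted p = 1.00). In CLP the mutant libraries, at 1.34, 1.79, 1.23 and 2.32, overlapped the wild type. Within a library the ratio of Unc93b1 to Tlr4 was 4.18 to 4.94 in wild-type HSC and 19.5 to 27.0 in wild-type MPP4. In mutant MPP4 it was 9.54 to 15.8. The MPP4 genotypes could not overlap in this ratio, because neither gene overlapped between them and the genes differed in opposite directions.

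Ly96 (chr1:16688456-16709605, plus strand), the co-receptor gene of TLR4, was more variable. Wild-type HSC libraries read 6.65, 6.19 and 16.4 RPKM, wild-type MPP4 10.3, 6.64 and 9.72, and wild-type CLP 2.75, 4.93 and 5.72. One wild-type HSC library, replicate 3, stood well above the other two. From HSC to CLP Ly96 fell by 0.89 on the log2 scale (limma adjusted p = 0.0149), but without wild-type HSC replicate 3 the difference was -0.48 with an adjusted p of 0.138, and without wild-type CLP replicate 1 the adjusted p was 0.0973. It was also 0.0721 after quantile normalization and 0.0612 with library weights. From MPP4 to CLP the difference was -0.88 (SE 0.29, adjusted p = 0.0531), which passed in 8 of the 12 alternatives (adjusted p 0.0182 to 0.0483), among them a fixed (0.0213) or random (0.0200) replicate block, and without wild-type HSC replicate 2 (0.0456) or 3 (0.0136), wild-type MPP4 replicate 2 (0.0444) or wild-type CLP replicate 3 (0.0422). The mean ratio of Ly96 to Tlr4 within a library was 1.10 in HSC, 2.05 in MPP4 and 3.26 in CLP for wild type. The wild-type ranges overlapped between neighbouring populations, at 0.664 to 1.90, 1.38 to 2.66 and 2.52 to 4.12. In wild-type CLP the ratio rests on low Tlr4 values, of 0.878 to 2.27 RPKM. For mutant libraries the means were 1.53, 2.18 and 4.55, with ranges of 1.17 to 2.16, 1.52 to 3.07 and 4.04 to 5.51.

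In mutant mice Ly96 had positive differences in all 3 populations, none past the test. The mutant libraries read 9.61, 9.95, 13.2 and 15.9 RPKM in HSC, 15.1, 10.5, 11.3 and 15.4 in MPP4, and 5.57, 8.09, 6.77 and 9.35 in CLP. In MPP4 all 4 lay above the highest wild-type library at 10.3, while in HSC and CLP the genotypes overlapped. The differences were 0.39 in HSC (interval -0.18 to 0.96), 0.51 in MPP4 (interval -0.06 to 1.08) and 0.65 in CLP (interval 0.08 to 1.22), with limma adjusted p of 1.00, 0.678 and 1.00.

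Tlr2 (chr3:83836272-83841824, minus strand), which encodes the receptor for bacterial lipoproteins, changed less than Tlr4. Wild-type HSC libraries read 9.27, 7.89 and 13.6 RPKM, MPP4 libraries 9.18, 8.17 and 9.31, and CLP libraries 6.10, 6.25 and 5.24. Only the CLP libraries stood apart, below all others of wild type. Tlr2 fell by 0.68 on the log2 scale from HSC to CLP (limma adjusted p = 0.00430). From MPP4 to CLP the difference was -0.53 (adjusted p = 0.0692), and it was 0.0527 with a fixed replicate block. It passed with the replicate number as a random block (0.0344), with only MPP4 and CLP libraries fitted (0.00853) and with library weights (0.0204). It also passed without wild-type HSC replicate 3 (adjusted p = 0.0378) or mutant HSC replicate 1 (adjusted p = 0.0214). Mutant CLP libraries, at 7.15, 6.35, 7.85 and 7.90, were all above the highest wild-type one, yet the difference of 0.28 had an interval of -0.09 to 0.64 and an adjusted p of 1.00.

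Myd88 (chr9:119335934-119340018, minus strand), the adaptor gene shared by most Toll-like receptors, declined stepwise. Wild-type libraries read 46.2, 40.4 and 48.3 RPKM in HSC, 38.2, 33.8 and 37.6 in MPP4, and 27.8, 29.0 and 30.3 in CLP, with no overlap between populations. From HSC to CLP it fell by 0.61 on the log2 scale (limma adjusted p = 3.80e-05). The single steps were smaller. From HSC to MPP4 it fell by 0.29 (adjusted p = 0.0267), which was lost without wild-type HSC replicate 1 (0.0718) or 3 (0.110) or wild-type MPP4 replicate 2 (0.115). From MPP4 to CLP it fell by 0.32 (adjusted p = 0.0400), which was lost without wild-type MPP4 replicate 1 (0.145) or 3 (0.117) or wild-type CLP replicate 1 (0.122), 2 (0.0939) or 3 (0.0552). After median-ratio scaling the adjusted p of these steps were 0.0643 and 0.0881, with library weights the first was 0.0537, and with only MPP4 and CLP libraries fitted the other was 0.0596. Mutant Myd88 libraries spanned 42.3 to 48.4 in HSC, 35.8 to 46.7 in MPP4 and 26.3 to 32.3 in CLP and overlapped the wild type each time. Myd88 overlaps Acaa1a on the opposite strand, which read 43.0, 44.3 and 40.1 RPKM on average in wild-type HSC, MPP4 and CLP. Reads from the bases both genes share cannot be told apart without strand. Slc22a14, on the same strand as Myd88, overlaps it as well, and there strand would not separate the reads.

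The kinase genes had small differences. Irak4 (chr15:94543613-94568317, plus strand), whose product is the first kinase to join MYD88, read 13.9, 14.5 and 13.1 RPKM in wild-type HSC, 14.0, 14.2 and 14.4 in MPP4 and 10.2, 9.95 and 11.2 in CLP. Only CLP stood apart. Irak4 fell by 0.41 on the log2 scale from MPP4 to CLP (limma adjusted p = 0.0296) and fell by 0.37 from HSC to CLP (adjusted p = 0.0154). The first call was lost without any 1 of the 3 wild-type MPP4 libraries (0.0714 to 0.0808) or without wild-type CLP replicate 1 (0.0783) or 2 (0.102), after quantile normalization (0.0625) and with only MPP4 and CLP libraries fitted (0.0588). The other was lost without wild-type HSC replicate 2 (0.0513) or wild-type CLP replicate 2 (0.0516), and after median-ratio (0.0602) or quantile scaling (0.124). Irak4 overlaps Twf1 on the opposite strand, which averaged 13.2, 10.6 and 9.82 RPKM in the same populations.

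Mutant CLP libraries held 9.61, 12.3, 14.2 and 13.8 RPKM of Irak4, overlapping the wild type, with a difference of 0.22 (limma adjusted p = 1.00). The macrophage gene C1qa, whose profile over the 21 libraries was the most like that of Irak4 (r = 0.895), averaged 4.03 ± 3.63 RPKM (SD, n = 4) in mutant CLP and 1.06 ± 1.69 (SD, n = 3) in wild-type CLP. Monocyte markers summed to 164 to 543 RPKM in mutant CLP against 183 to 244 in wild type, and neutrophil markers to 239 to 1968 against 310 to 556. Their part in the Irak4, Ly96 and Tlr2 values of mutant CLP was not tested.

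Irak1 (chrX:74013914-74023921, minus strand), the kinase gene acting after Irak4, varied less between groups than the other 2 abundant genes, Unc93b1 and Myd88. Wild-type libraries read 73.0, 71.7 and 77.3 RPKM in HSC, 69.1, 72.1 and 70.3 in MPP4 and 61.1, 64.2 and 59.4 in CLP, so that CLP again lay lowest. It fell by 0.26 on the log2 scale from HSC to CLP (limma adjusted p = 0.0252). That call was lost after median-ratio scaling (0.231) and without wild-type HSC replicate 3 (0.0810) or wild-type CLP replicate 1 (0.0593) or 3 (0.0763). Traf6 (chr2:101678420-101701668, plus strand), the ubiquitin ligase gene at the end of this chain, read 13.7 to 16.6 in wild-type HSC, 13.5 to 16.4 in MPP4 and 14.4 to 17.7 in CLP. Its difference from HSC to CLP was 0.15 (adjusted p = 0.262), and it passed only with quantile normalization (adjusted p = 0.0483). Mutant libraries of both genes overlapped the wild type in every population, from 53.2 to 84.8 RPKM for Irak1 and 13.7 to 17.4 for Traf6.

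Ordered by group mean, Unc93b1 ran from wild-type CLP through mutant CLP, wild-type MPP4, mutant MPP4 and wild-type HSC to mutant HSC, and neighbours overlapped only within CLP and within HSC. The highest mean was 4.55 times the lowest. Tlr4 ran from wild-type HSC through mutant HSC, mutant MPP4, wild-type MPP4 and mutant CLP to wild-type CLP, with an overlap only within CLP and a ratio of 6.18. The other ratios of highest to lowest mean were 2.93 for Ly96, 1.88 for Tlr2, 1.55 for Myd88, 1.38 for Irak4, 1.27 for Irak1 and 1.13 for Traf6, and all neighbours of Ly96, Irak4 and Traf6 overlapped. The groups were ordered by these same means, and the share of all genes whose neighbours separate in this way was not counted. The HSC genotypes did not overlap in Tlr4 although their difference had an unadjusted limma p of 0.423.

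Counted against all genes, the wild-type populations differed widely. The 8 genes were chosen with earlier results of these data known, so their counts are a description and not a test of the set. From HSC to MPP4, 3 of the 8 genes passed, 1 higher and 2 lower, where 39.3% of all genes did, 16.1% higher and 23.3% lower. From MPP4 to CLP 4 passed, 1 higher and 3 lower, against 13.1% of all genes, 4.77% higher and 8.38% lower. These counts come from the fit without pairing. With a replicate block Ly96 also passed in the step from MPP4 to CLP (limma adjusted p = 0.0213 fixed, 0.0200 random). Tlr2 passed there with the random block only (0.0344). From HSC to CLP 7 passed, 1 higher and 6 lower, against 51.1% of all genes, 19.4% higher and 31.7% lower. The 3 steps share libraries. The median difference of the 8 genes was -0.04, -0.37 and -0.49 in that order, and that of all genes was -0.06, -0.05 and -0.10. Median-ratio scaling moved the all-gene median from HSC to CLP up by 0.10, against falls of 0.26 for Irak1 and 0.37 for Irak4.

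Between genotypes few genes of any kind passed. In HSC 0 of the 8 passed by limma, against 0.0522% of all genes, and 0 of the 8 had an unadjusted p under 0.05, beside 4.45% of all genes. In MPP4 Unc93b1 alone passed, 1 of 8, against 0.217% of all genes, which was 25 genes, 12 higher and 13 lower. Since the 8 genes were chosen with earlier results known, this count does not test the set. There 2 of the 8, Unc93b1 and Tlr4, had an unadjusted p under 0.05, beside 8.14% of all genes. The split of all genes was 8 higher and 14 lower after median-ratio scaling and 5 higher and 15 lower after quantile normalization. In CLP 0 of the 8 passed by limma, against 0% of all genes, and 1 of the 8, Ly96, had an unadjusted p under 0.05, beside 4.41% of all genes. The median mutant difference of the 8 genes was -0.01 in HSC, 0.04 in MPP4 and 0.08 in CLP, and that of all genes was 0.01, 0.02 and 0.00. Tests of whether the mutant effect differed between populations called 0 of the 8 by limma for MPP4 against HSC and for CLP against MPP4, each against 0% of all genes, and 0 of 8 for CLP against HSC, against 0.0087%. At an unadjusted p under 0.05 these held 2, 1 and 0 of the 8, beside 3.79%, 3.84% and 3.65% of all genes. These genotype comparisons use the same wild-type libraries as the wild-type steps.

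**Figure D3:**
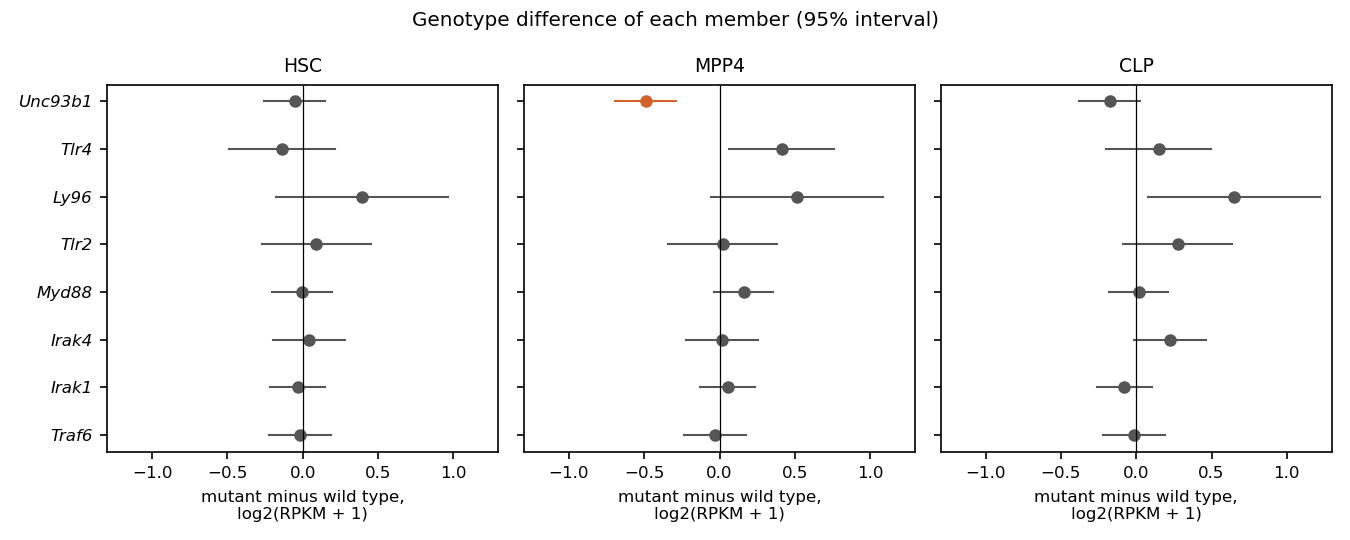
Mutant minus wild-type difference in log2(RPKM + 1) of the 8 genes in HSC, MPP4 and CLP, with 95% intervals; each point is a limma estimate from 4 mutant and 3 wild-type libraries. Unc93b1 in MPP4, at -0.49, is the one difference past the adjusted threshold.

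A wider list of 67 genes of the pathway, set apart from the 8 by role, had 59 genes in the table, all of them tested. From wild-type HSC to MPP4 14 rose and 14 fell, from MPP4 to CLP 7 rose and 7 fell, and from HSC to CLP 16 rose and 16 fell. These are 47.5%, 23.7% and 54.2% of the 59, beside 39.3%, 13.1% and 51.1% of all genes. The median differences were 0.00, 0.05 and 0.01. By role, from HSC to CLP 2 of 4 receptors rose and 1 fell, 2 of 4 co-receptors rose and 1 fell, and 6 of 12 chaperone, transport and protease genes rose and 3 fell. Among adaptors 2 of 4 rose and 1 fell, among kinases and their partners 1 of 11 rose and 2 fell, among ubiquitin enzymes 0 of 5 rose and 2 fell, among inhibitors 1 of 9 rose and 4 fell, and among transcription factors 2 of 10 rose and 2 fell.

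**Figure D4:**
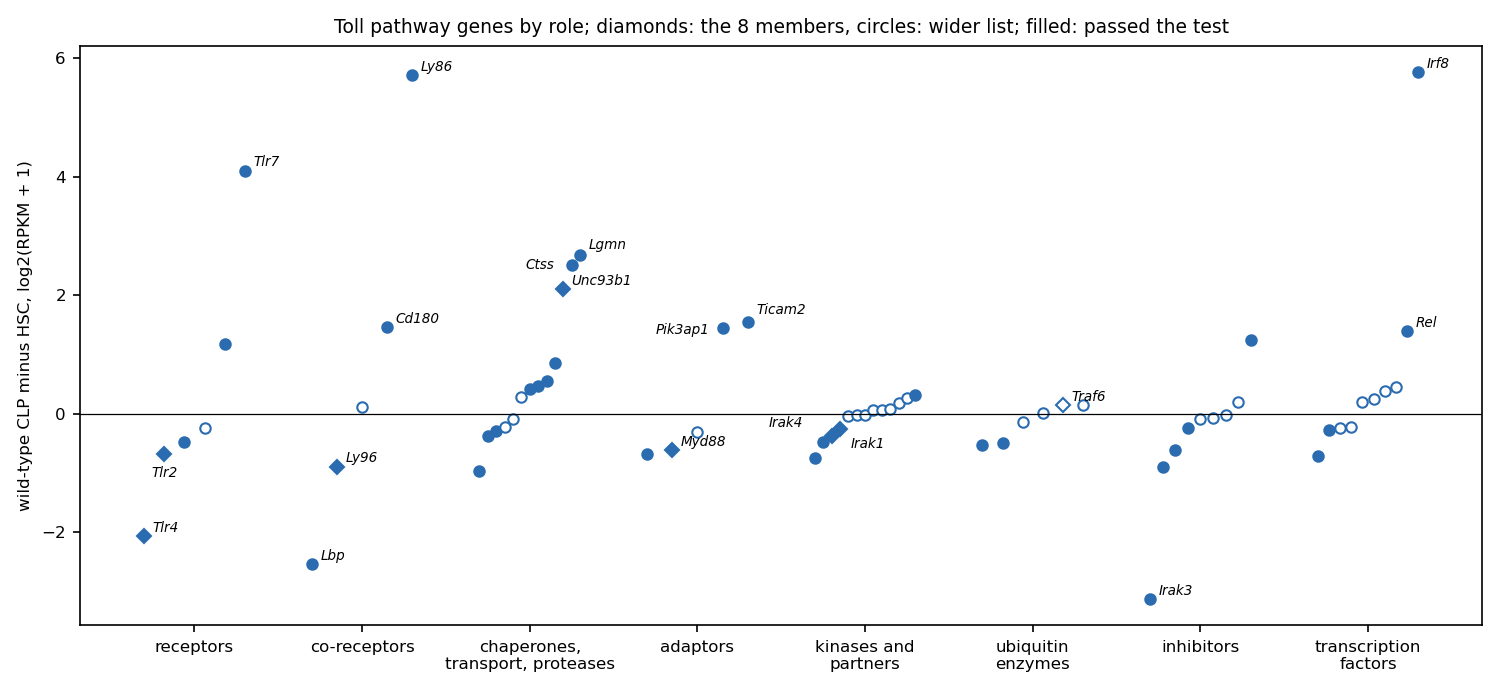
Wild-type CLP minus HSC difference in log2(RPKM + 1) of the 8 genes (diamonds) and the 59 wider pathway genes (circles), by role; filled symbols passed the adjusted threshold. Irf8, Ly86, Tlr7, Lgmn, Ctss and Unc93b1 lie at 2.10 or above, and Tlr4, Lbp and Irak3 lie at -2.06 or below.

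Tlr7, an endosomal receptor for single-stranded RNA that depends on UNC93B1, rose from 0.255 RPKM on average in wild-type HSC to 13.9 in MPP4 (3.55 on the log2 scale). It averaged 20.5 in CLP, a step from MPP4 that did not pass (limma adjusted p = 0.0595). Proteases that process endosomal receptors also rose: Ctss, encoding cathepsin S, from 9.53 to 45.5 between HSC and MPP4, Lgmn, encoding legumain, from 8.18 to 17.3 and Ctsb, encoding cathepsin B, from 60.7 to 101 between MPP4 and CLP. Ctsl, encoding cathepsin L, fell from 31.3 in HSC to 10.6 in MPP4. Ly86, whose product pairs with the TLR4-like receptor CD180, rose from 1.92 in HSC to 24.6 in MPP4 and 149 in CLP. Irf8, a transcription factor of dendritic and B cell development, rose from 2.24 to 48.8 and 178.

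The largest falls of the wider list included inhibitors and adaptors, although 2 of the 4 adaptors rose from HSC to CLP and 1 fell. Irak3, an inhibitor of IRAK signalling, fell from 37.2 RPKM in wild-type HSC to 7.01 in MPP4 (-2.25 on the log2 scale) and 3.39 in CLP. Lbp, encoding the lipopolysaccharide-binding protein, fell from 16.5 in MPP4 to 2.84 in CLP. Nfkbia, the NF-kB inhibitor, fell from 107 to 59.9 between HSC and MPP4, and Ticam1, the adaptor gene of TLR3 and TLR4, from 6.98 to 4.20. Tirap, which brings MYD88 to TLR2 and TLR4, fell from 3.90 in MPP4 to 2.15 in CLP, and Tlr6, the partner receptor of TLR2, from 2.44 to 1.29. From HSC to CLP Tnip1, another NF-kB inhibitor, fell by 0.89 on the log2 scale.

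Between genotypes the wider list held 1 gene past the test, in MPP4, which is 1.69% of the 59 beside 0.217% of all genes. This list too was chosen with earlier results of these data known, so its share is a description only. Irf8 fell in mutant MPP4, from 48.8 ± 2.46 RPKM (SD, n = 3) in wild type to 28.2 ± 4.89 (SD, n = 4), a difference of -0.79 on the log2 scale (SE 0.15, limma adjusted p = 0.0364). The adjusted p of Irf8 was 0.150 with a pseudocount of 0.1, 0.0625 with 0.5 and 0.0557 with MPP4 fitted alone, and the call was also lost without wild-type MPP4 replicate 1, 2 or 3 (0.0688 to 0.276), mutant MPP4 replicate 1 (0.0881) or 2 (0.0926) or mutant HSC replicate 1 (0.0504). In HSC and CLP 0 of 59 passed by limma, against 0.0522% and 0% of all genes. At an unadjusted limma p under 0.05 there were 2 genes in HSC, 7 in MPP4 and 3 in CLP. These are 3.39%, 11.9% and 5.08% of the 59, beside 4.45%, 8.14% and 4.41% of all genes. The median mutant difference of the wider list was 0.03 in HSC, 0.03 in MPP4 and -0.05 in CLP.

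Over the 21 libraries Unc93b1 tracked most closely with Cd6 (r = 0.989), Selplg (0.987) and Drc7 (0.987), as Pearson correlations of log2(RPKM + 1). Tlr4 tracked with Il15 (0.977), Hnmt (0.975) and Dapp1 (0.974), and Myd88 with Tmem42 (0.953), Aldoa (0.941) and Tmem205 (0.937). The closest genes of Irak1, Tlr2, Ly96 and Traf6 were Unc5a (0.918), Sh3gl1 (0.866), Atg4c (0.857) and Nap1l4 (0.775). Among the 8 genes, Tlr4 and Unc93b1 ran opposite (-0.93), Tlr4 and Myd88 ran together (0.90) and Unc93b1 and Myd88 ran opposite (-0.88). These values describe profiles that share libraries and rest mainly on the steps between the 3 populations.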

How the data were processed

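RNA of 21 sorted bone marrow libraries was measured. Per the labels' protocols, cells were sorted into lysis buffer, total RNA was purified, cDNA was made with the SMART-seq v4 kit and libraries with the NexteraXT kit. The submitters' processing notes name STAR and the build mm10. The counting of reads, and whether it used strand, was not given in the sources used here. The deposited table holds RPKM for 11628 genes in each library, made by the authors, with no counts, so depth is unknown.

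RPKM were analysed as log2(RPKM + 1). Genes with at least 1 RPKM in at least 3 libraries were kept, 11496 in all, among them the 8 members. One limma 3.58.1 model (R 4.3.3) with a mean for each of the 6 groups was fitted to all 21 libraries, which share 1 estimate of the spread, and p-values were adjusted by Benjamini-Hochberg over all genes tested. Differences are on the log2(RPKM + 1) scale, which understates changes of low genes. The method was tested on simulated data with independent noise in each gene and library, which does not cover libraries that share a mouse. The series description counts 3 wild-type and 4 mutant mice, and p-values measure the spread between their libraries. Replicate numbers were checked for pairing: after removal of each group's mean, libraries of the same number correlated over genes at 0.22 to 0.27 for wild-type CLP and MPP4 and at 0.13 to 0.34 for wild-type CLP and HSC, above 0.1 in 3 of 3 pairs each, so the numbers were taken to pair these samples. Such pairing would hold for wild-type MPP4 and HSC as well, where the correlations were 0.09 to 0.33, above 0.1 in 2 of 3 pairs. Between genotypes the correlations were at -0.15 to 0.45, and not every pair passed 0.1. The main fit used no pairing, and fits with a replicate block were run as alternatives. Mutant replicate 4 is labelled 12 weeks in HSC and MPP4 and 10 weeks in CLP.

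The members and lists were chosen with earlier results of these data known. Wider pathway genes were named where they passed in a genotype comparison or were among the 4 largest rises or falls past the threshold of a wild-type step, and 3 most similar genes were found per member. Gene positions and promoters come from RefSeq (GRCm38.p6). Alternatives changed the pseudocount (0.1 and 0.5), the filter (none, or a mean of 5 RPKM), the scaling, the libraries fitted, library weights, sex and age terms and the replicate block, and left out each library.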

Additional observations from a re-analysis of the deposited data

How the results depend on the processing

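Each member difference was recomputed under 12 alternatives and with each of the 21 libraries left out, 2376 values in all. Of 495 recomputed values of called differences 0 changed sign and 50 lost the call, and of 1881 of uncalled differences 88 changed sign and 18 passed. The members called in mutant MPP4 went from 1 to 0 with a pseudocount of 0.1 or 0.5, with quantile normalization, with only the populations compared and with the replicate block (Unc93b1 adjusted p = 0.0546 by limma), and ranged from 0 to 1 with a library left out. Samples of the same number in the 2 genotypes are different mice of the same labelled age and sex, and not every such pair correlated above 0.1. With number and genotype as a random replicate block instead (consensus correlation 0.21), which takes mutant replicate 4 as 1 mouse although its labelled age differs in CLP, Unc93b1 kept its call (adjusted p = 0.0379). The wider pathway genes called there went from 1 to 0 with either pseudocount or only the populations compared and to 3 with library weights, and ranged from 0 to 1 with a library left out. Of all genes, 25 passed in MPP4 against 0 with a pseudocount of 0.1, 14 with 0.5, 3 with only the populations compared, 42 with sex as a term, 48 with sex plus age, 184 with library weights, and 7 to 38 with a library left out. In HSC 6 passed against 12 with quantile normalization, 0 with only the populations compared, 21 with library weights, and 2 to 7 with a library left out. In CLP 0 passed, and 0 to 5 with a library left out. With a library left out, the members called ranged from 2 to 6 for wild-type MPP4 to CLP (4 as reported), 2 to 3 for HSC to MPP4 and 5 to 7 for HSC to CLP. The wider pathway genes ranged from 10 to 17, 21 to 28 and 29 to 33 in the same order. The blocks changed no other member call beside those of Tlr2 and Ly96 given with their results. The causes were not tested. Precision is limited by 3 or 4 libraries per group and by the lack of counts.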
